A study of Homo sapiens with 32 samples.

Results

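The etoposide response of cells with one altered p53 allele was compared with that of cells without p53, gene by gene. The cells were U2OS, a human osteosarcoma line with wild-type p53, edited by CRISPR-Cas9 and profiled by poly-A RNA sequencing. HET cells carried the genotype p53 WT/A347D, that is 1 wild-type allele and 1 allele coding for the A347D change in the region through which p53 molecules assemble into tetramers. KO cells carried the genotype p53 KO. Each line received the vehicle DMSO or 20 µM etoposide for 24 hours, with 4 libraries in each of the 4 groups, so that 16 of the 32 libraries of the series were used. Whether a genotype was represented by 1 clone or by several is not given in the sources used here, and nothing in the labels says that the 4 libraries of a group came from separate experiments, so p-values measure the spread between these libraries, which may be technical. The deposited matrix held 35587 gene symbols, and all of them belonged to the comparison. A total of 16158 genes reached 10 normalized counts in at least 4 of the 16 libraries and were tested.

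The p53 protein is a transcription factor that binds DNA as a tetramer and is stabilized after DNA damage. Etoposide traps topoisomerase II on cut DNA and so leaves double-strand breaks. In damaged cells p53 switches on genes for growth arrest, cell death, repair and its own restraint. One of those genes, CDKN1A, encodes the inhibitor p21, which blocks cyclin-dependent kinases. Through p21, the RB family and the DREAM complex keep E2F-driven replication genes and mitotic genes off, and many of the mitotic promoters hold the CHR element (cell cycle genes homology region) on which DREAM sits.

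The response of a gene in 1 line is the mean of log2(normalized count + 1) with etoposide minus that with DMSO, and the response difference is the response in HET minus the response in KO. A gene passed when limma's moderated test across all 16158 genes gave a Benjamini-Hochberg adjusted p under 0.05 and the change was at least 1.5-fold. Fold changes on this scale understate the change of genes with low counts. Library totals ran from 19195783 to 23049704 counts in 15 libraries, and HET etoposide replicate 2 held 8051382.

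More genes responded higher in HET than in KO (1650, 10.2% of the genes tested) than lower (1407, 8.71%). The median over all genes tested was -0.01. With counts scaled to the library totals instead, that median moved to -0.12 and the split turned to 1294 higher and 1900 lower, so the balance between the directions depends on the scaling. In HET, 2909 genes rose (18.0%) and 2236 fell (13.8%), 31.8% in either direction. In KO, 3214 rose (19.9%) and 2497 fell (15.5%), 35.3% in either direction. Both lines shared 1794 risers, which is 61.7% of those in HET and 55.8% of those in KO, and 1237 fallers, 55.3% and 49.5%. Among the 1650 genes with the higher response in HET, 544 rose in HET without passing in KO, 461 fell in KO without passing in HET, 267 rose in both lines, 121 fell in both and 64 rose in HET but fell in KO. The remaining 193 passed in neither line taken alone. Among the 1407 with the lower response, 504 rose in KO without passing in HET and 407 fell in HET without passing in KO. A further 248 passed in neither line, 103 fell in both, 95 rose in both and 50 fell in HET but rose in KO.

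The lines also differed before treatment. With DMSO, 3062 genes were higher and 2845 lower in HET than in KO (36.6% in either direction), and with etoposide 2849 were higher and 2562 lower (33.5%). Of the genes with the higher response in HET, 563 were lower in HET with DMSO and did not differ by the test with etoposide. Another 500 were higher in HET with etoposide and did not differ by the test with DMSO. Of those with the lower response, 474 were higher in HET with DMSO alone and 411 lower in HET with etoposide alone.

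**Figure D1:**
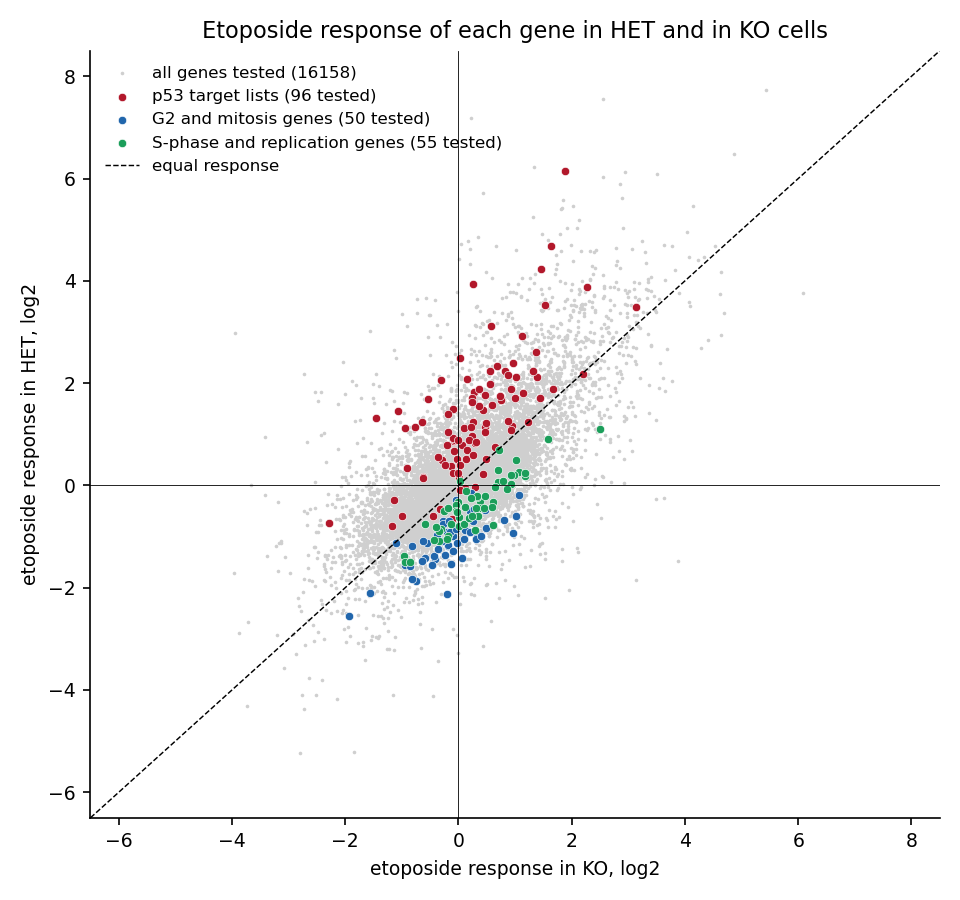
Etoposide response of each of the 16158 genes tested, in KO on the horizontal axis and in HET on the vertical axis, both in log2, with the p53 target lists, the G2 and mitosis genes and the S-phase and replication genes coloured; the dashed line marks equal responses. Of the p53 list members 88 of 96 lay above that line, while 50 of 50 G2 and mitosis genes and 54 of 55 S-phase and replication genes lay below it. Of all genes tested 7934 lay above it and 8211 below.

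Genes known as p53 targets responded more in HET. Of the genes in 5 lists, 96 were tested and 6 were not, 64 responded higher in HET than in KO (against 10.2% of all genes tested) and none lower (8.71% of all genes), and the median response difference was 0.92. In HET 71 of the 96 rose and 5 fell, with a median response of 1.19. In KO 29 rose and 12 fell, with a median of 0.25. Of the 64, 31 rose in HET without passing in KO, 20 rose in both lines, 5 rose in HET and fell in KO, 4 fell in KO without passing in HET, 3 passed in neither line and 1 (THBS1, thrombospondin 1) fell in both. The listed genes together summed to 74648 to 83016 normalized counts in the HET libraries with DMSO and 180593 to 188769 with etoposide. In KO the sums were 100776 to 106894 with DMSO and 102569 to 109375 with etoposide. The HET libraries with etoposide lay above all other libraries, and the KO ranges overlapped. With a minimum of 2-fold 40 of the 96 passed as higher.

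CDKN1A was read at 1488, 1385, 1748 and 1583 normalized counts in HET with DMSO, 16910, 17410, 19210 and 17990 in HET with etoposide, 2741, 3289, 2947 and 3277 in KO with DMSO and 9428, 9433, 8479 and 8159 in KO with etoposide. The 4 groups did not overlap: KO stood above HET with DMSO, and HET stood above KO with etoposide. The mean rose 11.5-fold in HET and 2.9-fold in KO, and the response difference was 1.99 ± 0.12 (estimate ± SE, adjusted p = 1.48e-09). The gene thus rose in cells without p53 as well, from a higher starting level.

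The feedback group holds genes that p53 induces and that in turn act on p53. Of its 9 members, 4 responded higher in HET. MDM2, the ubiquitin ligase that marks p53 for destruction, was read at 415, 436, 325 and 433 in HET with DMSO, 1924, 1927, 1682 and 2077 in HET with etoposide, 313, 252, 255 and 261 in KO with DMSO and 434, 429.8, 490.3 and 562 in KO with etoposide. HET with etoposide was far above the other 3 groups, and KO with etoposide was above KO with DMSO in each library (response difference 1.42 ± 0.16, adjusted p = 2.35e-06). TP53INP1, which codes for a nuclear cofactor of p53, climbed from 607 to 1427 in HET, whereas in KO it fell from 211 to 134 (response difference 1.90, adjusted p = 2.91e-07). ZMAT3, an RNA-binding zinc finger protein, rose 3.08-fold in HET, while in KO it read 304 with DMSO and 359 with etoposide.

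Among the growth arrest genes, 6 of 12 responded higher in HET, CDKN1A included. BTG2, an antiproliferative factor that promotes shortening of mRNA tails, was read at 595, 511, 569.5 and 529 in HET with DMSO and 2694, 2639, 3006 and 2842 with etoposide. The corresponding KO values were 489.6, 561.2, 532 and 543 with DMSO and 887, 883, 821 and 803 with etoposide. Both lines thus began at overlapping levels and both rose, HET 5.07-fold and KO 1.6-fold (response difference 1.67 ± 0.10, adjusted p = 1.7e-09). PLK3, a stress-responsive kinase, rose 6.07-fold in HET and 2.57-fold in KO. PRDM1, a transcriptional repressor, climbed from 39.4 to 98.1 in HET, whereas in KO it fell from 254 to 92.3, ending at overlapping levels.

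The cell death genes gave 11 of 15 tested members with the higher response. BBC3, the death activator PUMA, was read at 403, 337, 475 and 384 in HET with DMSO, 1017, 1167, 1168 and 1106 in HET with etoposide, 352, 332, 338 and 389.8 in KO with DMSO and 278, 372, 343 and 330.4 in KO with etoposide. It rose in HET and stood apart there from the other 3 groups, whose ranges overlapped (response difference 1.58 ± 0.15, adjusted p = 3.36e-07; KO response -0.10, adjusted p = 0.429). BAX, which opens the mitochondrial outer membrane, read 1524, 1523, 1855 and 1636 in HET with DMSO, 2849, 3065, 3080 and 2922 with etoposide, 1181, 1345, 1244 and 1342 in KO with DMSO and 1261, 1233, 1227 and 1100 with etoposide. Its rise in HET was 1.82-fold, and the response difference was 0.95 ± 0.10 (adjusted p = 2.06e-06). FAS, a death receptor, rose in both lines, 14.7-fold in HET and 4.86-fold in KO. FDXR, a mitochondrial reductase that passes electrons to ferredoxin, rose 4.24-fold in HET, and its KO libraries read 1327 to 1766 with DMSO and 1484 to 1839 with etoposide. EDA2R, a receptor of the tumor necrosis factor family, rose 4.71-fold in HET against 65.5 and 96.1 in KO.

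PMAIP1, the death activator NOXA, did not follow that pattern. It was read at 518, 727, 401 and 561.1 in HET with DMSO, 2539, 2481, 2171 and 2616 in HET with etoposide, 426, 282, 379 and 315 in KO with DMSO and 1540, 1401, 1607 and 1816 in KO with etoposide. Both lines rose, HET 4.45-fold and KO 4.54-fold, without overlap between treatments. Its response difference was -0.01 ± 0.21 (adjusted p = 0.973). The HET and KO responses of single libraries overlapped. SIVA1, a small adaptor of death receptor signalling, fell in HET, and its response difference of -0.55 did not reach 1.5-fold, although it passed as lower with total-count scaling.

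Repair and metabolism targets passed in 15 of 22 cases, and the difference was above 0 in all 22. DDB2, which finds ultraviolet lesions for excision repair, rose in HET from 1015 to 2672 and read 906 and 792 in KO. SESN1 and SESN2, sestrins that restrain mTORC1, had response differences of 1.30 and 1.48; SESN1 rose in both lines and SESN2 in HET. PHLDA3, which competes with AKT for membrane lipid, was read at 1412, 1182, 1717 and 1386 in HET with DMSO, 4344, 4722, 4849 and 4439 in HET with etoposide, 1212, 1355, 1278 and 1329 in KO with DMSO and 771, 993, 956 and 852 in KO with etoposide. HET rose, and in KO each library with etoposide lay below each with DMSO, though the KO response missed 1.5-fold (-0.54). GLS2, a mitochondrial glutaminase, rose in HET from 5.25, 5.21, 8.75 and 6.2 to 124, 137, 144 and 136. Its KO libraries read 0.95 to 2.23 with DMSO and 2.77 to 8.41 with etoposide, below or close to the limit of 3 counts. That limit is 2.363 to 6.151 normalized counts depending on the library. The KO rise thus rested on few counts.

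Of the remaining targets, 28 of 38 tested members responded higher in HET. GDF15, a secreted stress cytokine, was read at 25.4, 15.6, 23.6 and 26.6 in HET with DMSO, 1488, 1724, 1782 and 1632 in HET with etoposide, 33.1, 22.5, 27.6 and 51.2 in KO with DMSO and 141, 121, 106 and 119 in KO with etoposide. It rose in both lines, 72.7-fold in HET and 3.63-fold in KO, and its response difference of 4.26 ± 0.28 was the highest on the 5 lists (adjusted p = 5.45e-09). EPN3, an epsin of the endocytic coat, rose in HET from 14.7 to 238 and read 46.7 and 55.7 in KO (response difference 3.69, or 2.38 on the deposited scale). CYFIP2, a subunit of the complex that drives actin branching, rose in HET and fell in KO (response difference 2.53). THBS1 fell in HET from 7112 to 4214 and in KO from 19320 to 3937, so that its higher response in HET (1.55) was a smaller fall.

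**Figure D2:**
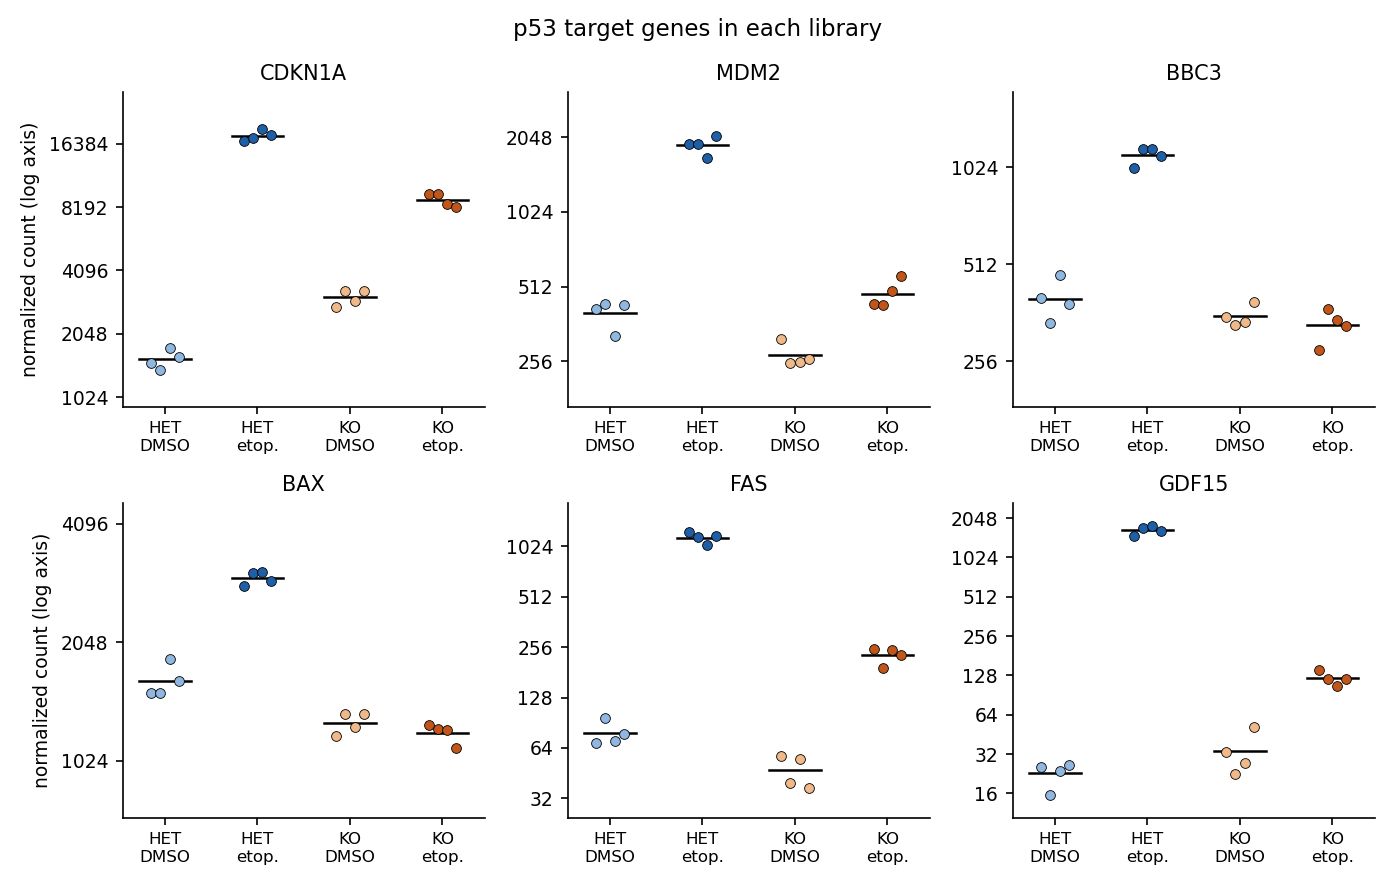
Normalized count (log axis) of 6 p53 target genes in each of the 16 libraries, by genotype and treatment; points are libraries and lines are group means of 4 libraries. CDKN1A, MDM2, FAS and GDF15 rose in both lines and further in HET, while BBC3 and BAX rose in HET and overlapped between the KO groups.

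Promoter sequence was set beside these genes. RefSeq promoters (GRCh38.p14, 250 bases before to 50 after the start) were matched to 12167 of the 16158 genes tested, 11725 by symbol and 442 by an older symbol. The p53 core, CATG followed by 6 bases of any kind and a second CATG, which is searched alike on both strands, was present in 0.39% of all 27305 promoters, in 0.21% of the genes tested, in 6 of the 1238 matched genes that responded higher in HET (0.48%), and in none of the 1082 that responded lower. Of the 80 matched members of the p53 lists, 1 held it (TRIAP1). Shown here, with the motif in capitals, are the 100 bases before the start of CEL (carboxyl ester lipase, chr9:133061881-133061980, plus strand) and TRPM2 (a cation channel, chr21:44353521-44353620, plus strand), and 27 of the first 50 bases after the start of TRIAP1, with the match beginning at base 32 (chr12:120446335-120446361, minus strand), each 5′ to 3′. CEL and TRPM2 were chosen after their values were seen.
CEL: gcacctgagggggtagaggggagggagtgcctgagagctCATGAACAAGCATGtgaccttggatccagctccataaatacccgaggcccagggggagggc
TRPM2: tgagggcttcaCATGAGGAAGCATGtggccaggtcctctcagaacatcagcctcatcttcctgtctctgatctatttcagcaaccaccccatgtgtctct
TRIAP1: gggggaggCATGCACGGACATGaagcg
CEL rose in HET from 4.37, 10.4, 11.4 and 7.96 to 84.7, 55.4, 95.8 and 93 and read 16.7 to 24.7 with DMSO and 21.9 to 31.3 with etoposide in KO. TRPM2 rose 2.67-fold in HET (response difference 1.26), and TRIAP1, an inhibitor of apoptosome formation, rose 2.79-fold in HET (response difference 1.05). A match is a description of letters in this window and not a binding site. Other forms of the p53 motif and sequence outside the window were not searched, so a gene without a match may still hold a p53 site.

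The G2 and mitosis genes went the other way. Of 50 members, 40 responded lower in HET than in KO (80.0%, against 8.71% of all genes tested) and none higher (10.2% of all genes). The median response difference was -0.95, and 50 of 50 lay below 0. In HET 44 of the 50 fell (median -1.06). In KO 11 fell and 4 rose (median -0.17). Of the 40, 26 fell in HET without passing in KO, 7 fell in both, 3 fell in HET and rose in KO, 1 rose in KO alone and 3 passed in neither line. The list summed to 123959 to 135750 normalized counts in HET with DMSO and 56755 to 58163 with etoposide, and to 164096 to 173376 and 122568 to 131919 in KO. The sums of each etoposide group lay below those of the DMSO group of its line, and the HET etoposide libraries lay below all others. In bulk libraries fewer cells in a phase and less RNA per cell cannot be told apart.

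Many of these promoters carried the CHR element. TTTGAA, searched on both strands, was present in 28 of the 42 matched members (66.67%), against 15.43% of all promoters, 10.11% of the genes tested, 8.32% of those that responded higher in HET and 16.91% of those that responded lower. Of these 28, 24 responded lower in HET and 4 did not pass (CDC20, CDCA8, ESPL1 and INCENP). On the whole list 40 of 50 (80.0%) responded lower, a share close to that of the members with the element. The element began within the last 30 bases before the start in 14, of which 12 responded lower and CDCA8 and INCENP did not pass. The 100 bases before the start are given with the element in capitals for CCNB2 (cyclin B2, chr15:59105046-59105145, plus strand), BUB1B (the checkpoint kinase BUBR1, chr15:40160969-40161068, plus strand), KIF11 (a kinesin that separates spindle poles, chr10:92593030-92593129, plus strand), PRC1 (a bundler of midzone microtubules, chr15:90994536-90994635, minus strand) and HMMR (a microtubule-binding protein, chr5:163460532-163460631, plus strand), which are 5 of those 12.
CCNB2: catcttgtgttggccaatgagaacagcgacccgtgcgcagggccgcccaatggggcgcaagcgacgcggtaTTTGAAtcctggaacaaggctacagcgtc
BUB1B: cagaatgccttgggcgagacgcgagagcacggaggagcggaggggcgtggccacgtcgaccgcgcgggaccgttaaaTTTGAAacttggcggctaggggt
KIF11: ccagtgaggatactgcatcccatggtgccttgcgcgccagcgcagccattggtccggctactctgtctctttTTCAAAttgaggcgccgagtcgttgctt
PRC1: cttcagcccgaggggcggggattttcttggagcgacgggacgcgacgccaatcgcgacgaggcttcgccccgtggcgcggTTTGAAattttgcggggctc
HMMR: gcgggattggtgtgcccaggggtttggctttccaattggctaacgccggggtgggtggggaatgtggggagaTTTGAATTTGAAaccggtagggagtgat
In CCNB2 the element began 29 bases before the start, in KIF11 28 (on the other strand, read as TTCAAA), in BUB1B 23 and in PRC1 20, and HMMR held 2 copies in a row. CCNB2 fell 2.95-fold in HET, PRC1 2.45-fold and KIF11 2.61-fold, and their response differences were -1.10, -1.19 and -1.13. BUB1B had a response difference of -1.03.

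NUSAP1, a spindle microtubule protein, showed the largest difference on the list. It was read at 1621, 2363, 1494 and 1617 normalized counts in HET with DMSO, 406, 396, 377 and 418 in HET with etoposide, 2345, 1708, 2023 and 1533 in KO with DMSO and 1971, 1344, 1626 and 1641 in KO with etoposide. HET with etoposide stood below the other 3 groups, and the difference was -1.92 ± 0.20 (adjusted p = 1.45e-06). HMMR was read at 448, 783, 443 and 587 in HET with DMSO, 285, 297, 259.7 and 306 in HET with etoposide, 358, 204, 300.3 and 194 in KO with DMSO and 535, 408, 563 and 491 in KO with etoposide. It fell in HET and rose in KO, as did NUF2, of the outer kinetochore, and MAD2L1, of the spindle checkpoint, with differences of -1.89, -1.61 and -1.47. TOP2A, the topoisomerase that etoposide traps, fell in HET from 9041 to 3319 and read 6525 and 6740 in KO (response difference -1.47 ± 0.18, adjusted p = 6.76e-06). CDK1, the mitotic kinase, rose in KO from 938 to 1951 and read 1674 and 1464 in HET. CDC20, the activator of the anaphase-promoting complex, fell in both lines, 4.35-fold in HET and 2.96-fold in KO, and its difference of -0.55 missed 1.5-fold. FOXM1, a transcription factor of mitotic genes, had a difference of -0.48, also short of 1.5-fold. With all 32 libraries of the series in the fit 24 of the 50 passed in place of 40, HMMR, KIF11 and CDK1 not among them, and with a minimum of 2-fold 21 passed.

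S-phase and replication genes also responded lower in HET, in 34 of 55 cases (61.8%, against 8.71% of all genes tested). None responded higher (10.2% of all genes), and 54 lay below 0 (median -0.67). In KO 19 members rose, 4 fell and the others did not pass (median 0.29), while in HET 3 rose and 20 fell (median -0.42). Of the 34, 13 rose in KO without passing in HET, 12 fell in HET without passing in KO, 5 passed in neither, 2 rose in both lines, 1 fell in both and 1 fell in HET and rose in KO. The list summed to 106081 to 113361 normalized counts in HET with DMSO, 76308 to 78351 in HET with etoposide, 123226 to 132856 in KO with DMSO and 132478 to 135221 in KO with etoposide. With a minimum of 2-fold 4 of the 55 passed, and with all 32 libraries in the fit CCNE2 lost its call. The HET sums were lower with etoposide without overlap, and the KO ranges overlapped.

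**Figure D3:**
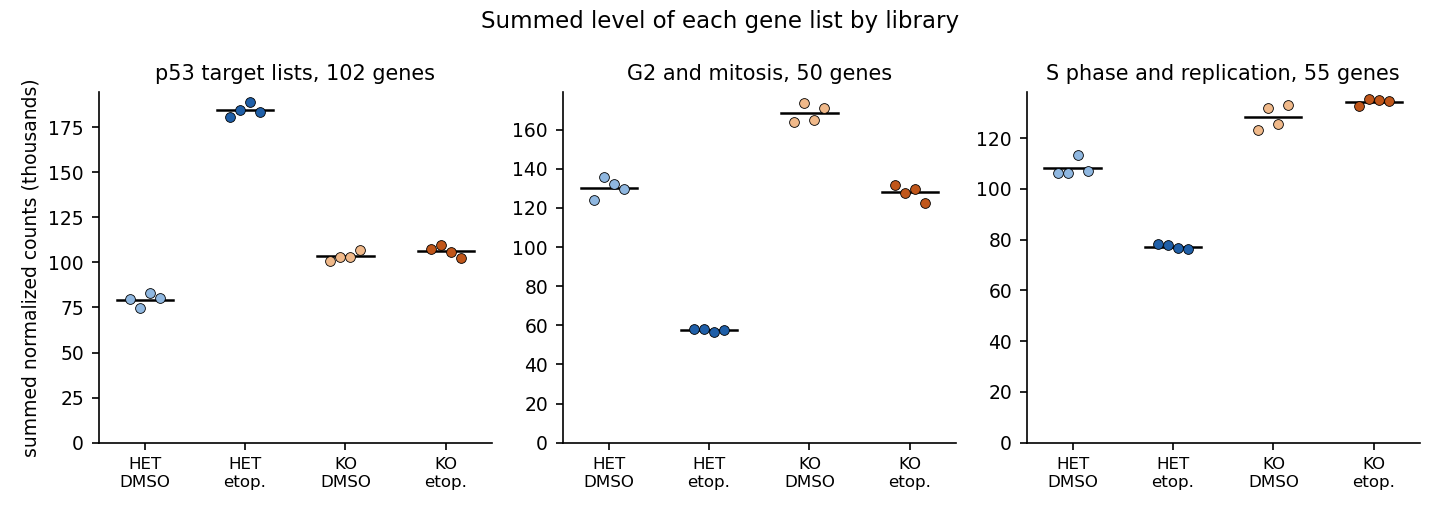
Summed normalized counts (axis in units of 1000) of the p53 targets, the 50 G2 and mitosis genes and the 55 S-phase and replication genes in each of the 16 libraries; points are libraries, lines are means of 4, and the axes start at 0. With etoposide the HET libraries were highest for the p53 lists and lowest for both cell cycle lists.

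The E2F forms TTTGGCGC, TTTCCCGC and TTTCGCGC, on both strands, were present in 22 of 46 matched members of the S-phase list (47.83%). They were in 2.79% of all promoters and 4.27% of the genes tested. The share was 2.91% of those that responded higher in HET and 7.12% of those that responded lower. Of the 22 list members with a form, 11 responded lower in HET and 11 did not pass. On the whole list 34 of 55 (61.8%) responded lower, so members with a form did not pass more often. The 100 bases before the start, with the E2F form in capitals (GCGGGAAA is TTTCCCGC read on the other strand), are given for GINS2 (a subunit of the replicative helicase, chr16:85688955-85689054, minus strand), POLA2 (of DNA polymerase alpha, chr11:65261862-65261961, plus strand), RFC3 (of the clamp loader, chr13:33818049-33818148, plus strand) and MCM7 (of the helicase ring, chr7:100101398-100101497, minus strand), which are 4 of the 11 that responded lower.
GINS2: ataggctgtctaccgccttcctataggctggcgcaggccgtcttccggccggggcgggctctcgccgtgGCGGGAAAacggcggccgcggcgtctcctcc
POLA2: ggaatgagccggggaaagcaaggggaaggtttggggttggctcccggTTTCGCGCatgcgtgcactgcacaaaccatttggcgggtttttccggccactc
RFC3: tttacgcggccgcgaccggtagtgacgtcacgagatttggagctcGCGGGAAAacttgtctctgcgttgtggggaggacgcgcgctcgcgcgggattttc
MCM7: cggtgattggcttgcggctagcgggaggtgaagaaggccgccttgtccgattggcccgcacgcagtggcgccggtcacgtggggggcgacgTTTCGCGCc
Their response differences were -0.74, -0.86, -0.93 and -0.64. GINS2, POLA2 and MCM7 fell in HET, whereas RFC3 rose in KO from 475 to 852 and read 721 and 681 in HET.

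CCNE2, cyclin E2, which drives entry into S phase, was read at 166, 239, 146 and 159 in HET with DMSO, 407, 402, 335 and 355 in HET with etoposide, 134, 73.9, 113 and 59 in KO with DMSO and 452, 504, 505 and 601 in KO with etoposide. It rose in both lines, 2.11-fold in HET and 5.42-fold in KO (response difference -1.40 ± 0.29, adjusted p = 0.00128). PRIM1, the catalytic subunit of primase, fell in HET from 750 to 408 (response difference -1.16).

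Homologous recombination and Fanconi genes, which repair double-strand breaks and crosslinks, passed as lower in 18 of 31 cases. That is 58.1%, against 8.71% of all genes tested. None passed as higher (10.2% of all genes), and the median response difference was -0.71. In KO 12 of the 31 rose and 2 fell, and in HET 1 rose and 8 fell. FANCD2, a protein of the Fanconi pathway that is ubiquitinated, fell in HET from 1112 ± 75.5 to 642 ± 38 (mean ± SD, n = 4). It read 938 ± 86.3 and 1174 ± 43 in KO (response difference -1.12). BLM, the helicase of Bloom syndrome, rose in KO from 335 ± 76.1 to 586 ± 63.2 and read 452 ± 89.3 and 363 ± 26 in HET (response difference -1.12). With all 32 libraries in the fit 7 of these genes passed in place of 18, and with a minimum of 2-fold 6.

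Replication histones showed the opposite sign, with a median response difference of 1.14. Of 15 tested members, 7 responded higher in HET (46.7%, against 10.2% of all genes tested) and 1 lower (6.67%, against 8.71%). All 15 fell in KO, and 8 fell in HET. HIST1H2AC was read at 479, 468, 393 and 426 in HET with DMSO, 242, 211, 191 and 185 in HET with etoposide, 434, 339.5, 356 and 318 in KO with DMSO and 36, 39.9, 44.6 and 41.2 in KO with etoposide. The KO libraries with etoposide were the lowest, without overlap (2.04, adjusted p = 5.47e-08). HIST2H2BE fell in KO from 657 to 221 and read 987 and 875 in HET. HIST2H2AC went the other way, at -1.17, a call that was lost on the deposited scale (-0.55). These genes are near-identical copies whose main transcripts lack a poly-A tail, and the libraries were poly-A selected, so the split of reads among them is uncertain.

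Survival and death machinery outside the p53 lists was mixed. In the BCL2 family 3 of 13 members responded higher (23.1%) and 1 lower (7.69%), against 10.2% and 8.71% of all genes tested. BCL2L1, which codes for the guardian BCL-xL, climbed from 2867, 2433, 3238 and 2793 to 4540, 4505, 5158 and 4694 in HET, whereas in KO it fell from 3936, 4757, 4370 and 4989 to 3004, 3026, 2939 and 2729. The order of the lines reversed, HET being the lower with DMSO and the higher with etoposide (1.36 ± 0.12, adjusted p = 2.18e-07). BMF, a BH3-only protein, fell in both lines, 13.8-fold in HET and 6.23-fold in KO. Among 9 caspases 1 responded higher and 1 lower (11.1% each), close to the shares of all genes.

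**Figure D4:**
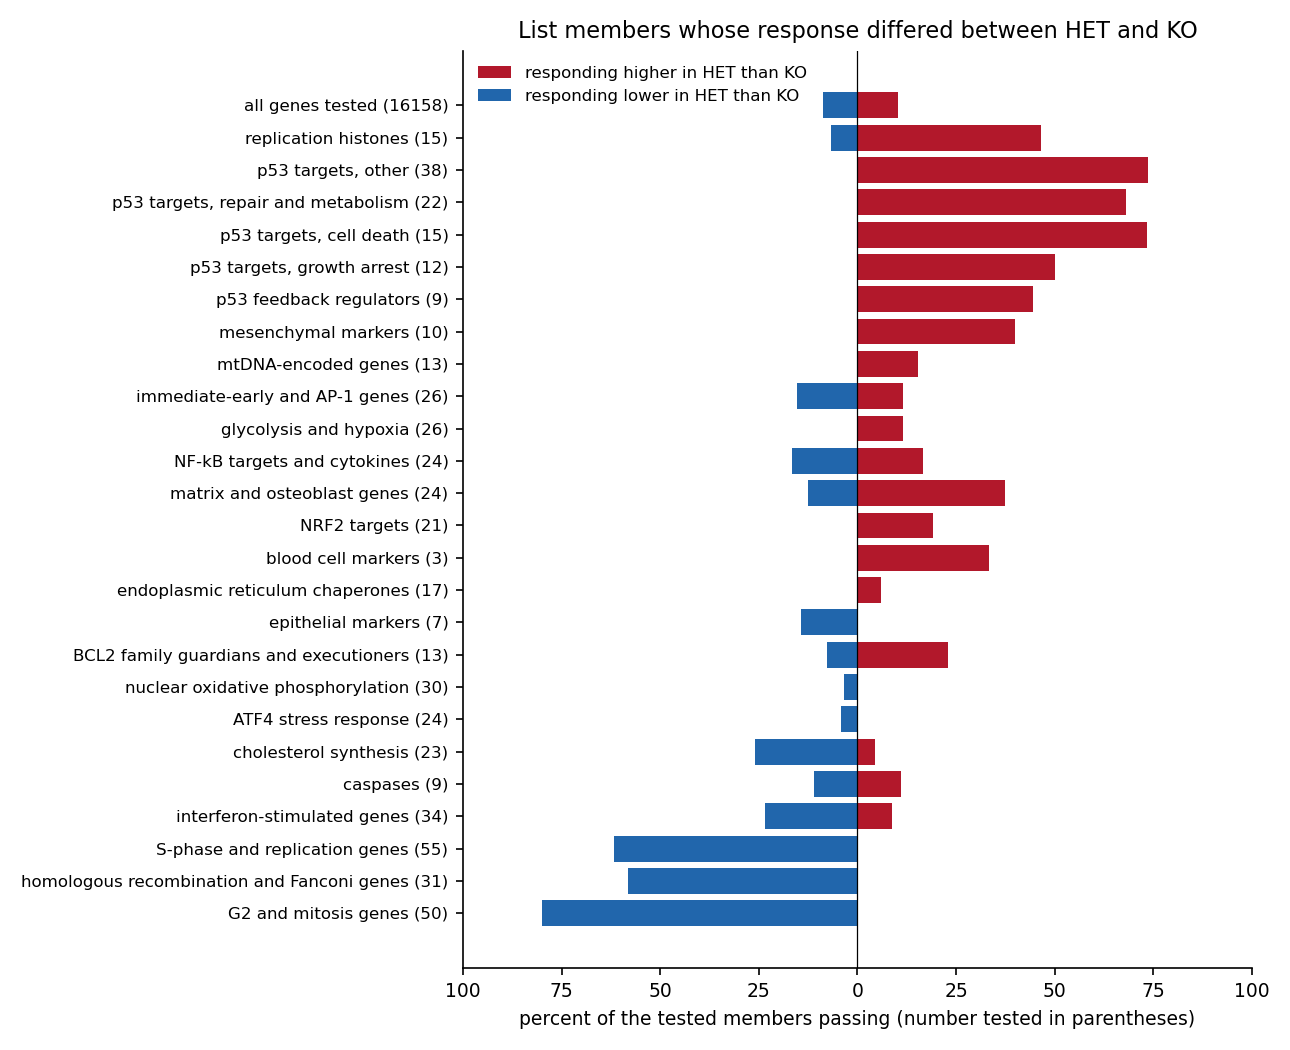
Percent of the tested members of each gene list that responded higher (right) or lower (left) in HET than in KO, with the number tested in parentheses and lists ordered by median response difference. The p53 lists extend to the right and the cell cycle and recombination lists to the left, against 10.2% and 8.71% of all genes.

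Genes of the inflammatory response rose in both lines. Of 24 tested NF-kB targets and cytokines, 22 rose in HET and 20 in KO with none falling. The response was higher in HET for 4 and lower for 4 (16.7% each, against 10.2% and 8.71% of all genes tested). MMP3, a matrix metalloproteinase, was read at 1.75, 4.34, 1.75 and 4.42 in HET with DMSO and 229, 279, 269 and 229 with etoposide, and at 48.7, 62.1, 63.7 and 43.4 and 308, 296, 339 and 339 in KO. It rose in both lines, and the HET libraries were below the KO libraries under either treatment, by far more with DMSO. The response difference of 3.48 was 1.26 on the deposited scale, which compresses low values. NFKBIZ, an atypical IkB protein, was read at 206, 201, 147 and 215 in HET with DMSO, 773, 736, 717 and 738 in HET with etoposide, 745, 682, 774 and 596 in KO with DMSO and 632, 691, 653 and 756 in KO with etoposide. It rose in HET to the range of both KO groups, which overlapped (response difference 1.99 ± 0.15, adjusted p = 3.74e-08). CXCL8, interleukin 8, was read at 24.5, 20.8, 21.9 and 19.5 in HET with DMSO, 321, 340.4, 275 and 295 in HET with etoposide, 11.7, 4.28, 2.85 and 0 in KO with DMSO and 289.5, 248, 250 and 308 in KO with etoposide. It rose in both lines to like levels from a lower start in KO, and its difference of -2.32 shrank to -0.69 on the deposited scale and lost the call with all 32 libraries in the fit. SOD2, the mitochondrial superoxide dismutase, rose in KO from 976 to 1676 and read 3030 and 2295 in HET.

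Immediate-early and AP-1 genes rose in 20 of 26 cases in each line. The response was higher in HET for 3 (11.5%, against 10.2% of all genes tested) and lower for 4 (15.4%, against 8.71%). The count of 4 was between 1 and 5 over the settings run. ATF3, a stress-induced repressor, rose 17.5-fold in HET and 5.88-fold in KO (response difference 1.56 ± 0.15, adjusted p = 3.66e-07). FOSL2, an AP-1 subunit, fell in KO from 6983 to 3675 and read 3510 and 4611 in HET. FOS rose in both lines, 1.74-fold in HET and 2.86-fold in KO. The AP-1 form TGACTCA, on both strands, was in 5.98% of matched promoters of genes with the higher response, 3.14% of those with the lower response, 3.27% of the genes tested and 4.92% of all promoters.

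Interferon-stimulated genes passed as lower in 8 of 34 cases (23.5%, against 8.71% of all genes tested). They passed as higher in 3 (8.82%, against 10.2%), and the median response difference was -0.34. In HET 19 rose and 2 fell, and in KO 25 rose. IFIT1, which binds foreign RNA ends, fell in HET from 243, 302, 239.7 and 246 to 112, 107, 111 and 84.3, while in KO it read 360.1, 204, 315 and 209 with DMSO and 398, 301, 351 and 347 with etoposide. HET with etoposide was the lowest group, without overlap (-1.71 ± 0.23, adjusted p = 2.09e-05). IFIT2, of the same family, rose in KO from 109.9 to 413 and read 31.7 and 41.3 in HET. OASL, a relative of the 2′-5′ oligoadenylate synthetases, rose in KO and had a difference of -0.92. The count of 3 was 1 with total-count scaling and between 0 and 4 over the settings run.

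Metabolic and stress lists are given beside the 10.2% of all genes that responded higher and the 8.71% that responded lower. Of 24 ATF4 targets 1 passed as lower and none as higher, and of 17 chaperones of the endoplasmic reticulum 1 passed as higher. Cholesterol synthesis gave 6 lower (26.1%) and 1 higher of 23, NRF2 targets 4 higher of 21 (19.0%), and glycolysis and hypoxia genes 3 higher of 26 (11.5%). The 6 for cholesterol synthesis were 3 with a trend on GC content and length removed, and between 0 and 10 over the settings run. The 4 for NRF2 targets were between 2 and 7. Nuclear genes of oxidative phosphorylation gave 1 lower of 30. The 13 protein genes of mitochondrial DNA had a median difference of 0.41 with 2 passing as higher (15.4%), and neither passed with the libraries scaled to their totals. Their share of all counts was 7.87% to 9.43% in HET with DMSO, 8.35% to 8.87% in HET with etoposide, 11.37% to 14.65% in KO with DMSO and 9.17% to 12.43% in KO with etoposide. Whether that share has a part in other results was not tested. The 3 calls among glycolysis and hypoxia genes were also absent with total-count scaling.

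Matrix and osteoblast genes, which reflect the origin of the line, passed in 12 of 24 cases, 9 higher and 3 lower. The shares were 37.5% higher and 12.5% lower, against 10.2% and 8.71% of all genes tested. With total-count scaling the count of 9 was 6, as it was with a trend on GC content and length removed. It was between 4 and 10 over the settings run. FN1, fibronectin, was read at 24390, 15470, 22560 and 24710 in HET with DMSO, 40540, 39160, 42250 and 42150 in HET with etoposide, 8100, 8135, 8932 and 10330 in KO with DMSO and 4516, 5315, 5152 and 5519 in KO with etoposide. It rose in HET and fell in KO, and the lines did not overlap under either treatment (1.73 ± 0.17, adjusted p = 8.23e-07). BGN, the proteoglycan biglycan, climbed from 4.16 to 9.47 in HET, whereas in KO it fell from 87.5 to 39.6. LUM, lumican, rose in KO from 44.1 to 159 and read 2971 and 2304 in HET (-2.16).

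Cell type markers were followed in the same libraries. Of 10 mesenchymal markers all were tested, 4 responded higher in HET, and their sum was 118695 to 168138 normalized counts in HET with DMSO, 154771 to 175174 in HET with etoposide, 127362 to 141870 in KO with DMSO and 98973 to 111040 in KO with etoposide. Of 10 epithelial markers 7 were tested and 1 responded lower (14.3%, against 8.71% of all genes tested). That was KRT14 (keratin 14), which fell 10.8-fold in HET and 3.14-fold in KO. Of the 7, 4 rose and 1 fell in HET and 3 rose and 1 fell in KO, and KRT14 held most of the sum in DMSO. The epithelial sum was 1424 to 1741 in HET with DMSO, 593.2 to 639.7 in HET with etoposide, 2767 to 3212 in KO with DMSO and 2487 to 2686 in KO with etoposide. Of 10 blood cell markers 3 were tested (CD68, PTPRC and ITGAM), and the 3 rose in both lines. CD68, a lysosomal protein of macrophages, responded higher in HET (1.30). The sum of the 10 was 53.35 to 69.99 in HET with DMSO, 215.3 to 249.1 in HET with etoposide, 124.7 to 134 in KO with DMSO and 235.3 to 263.7 in KO with etoposide. Of the 10, 2 had no count in HET with DMSO, 2 none in KO with DMSO and 1 none in KO with etoposide, and each had counts in HET with etoposide. Whether these markers have a part in the results for the gene lists was not tested.

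Many of the largest differences belonged to genes with low counts in at least 1 group. Higher in HET were TREM2, LCE1E, NECTIN4, DSEL, SULF2, CYGB, AL035078.4, MYH16, APOBEC3H, SPATA31C2, GDF15 and NCKAP5. TREM2, an immune receptor of myeloid cells, was read at 0.875, 0.868, 0.875 and 0.885 in HET with DMSO, 259.9, 246, 312 and 276 in HET with etoposide and 0 in 7 of the 8 KO libraries, with 1 count in the last. It was thus abundant in HET with etoposide alone among the 4 groups. LCE1E, a protein of the cornified envelope with near-identical relatives, read 44, 39, 64.9 and 64.6 in HET with etoposide and had at most 2 counts in any other group. NECTIN4, an adhesion protein, read 2.62, 2.6, 4.37 and 8.85 and 997, 1017, 890.2 and 944 in HET and 5.84, 4.28, 2.85 and 1.11 and 23.1, 21.7, 23.5 and 25.2 in KO, with DMSO and with etoposide in turn. It rose in both lines, and its response difference was 5.00 ± 0.46 (adjusted p = 2.69e-07). CYGB, cytoglobin, climbed from 18.4, 23.4, 34.1 and 23.9 to 204, 213, 214 and 184 in HET, whereas in KO it fell from 26.3, 27.8, 27.6 and 32.3 to 9.22, 11.3, 6.49 and 9.25. The DMSO levels of the lines overlapped, and the difference was 4.58 ± 0.27 (adjusted p = 1.43e-09).

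Several of these rested on an uneven or low start. DSEL, an enzyme of dermatan sulfate, read 0, 91.1, 3.5 and 0 in HET with DMSO, so 1 library carried nearly all of that group, and 338, 433, 305 and 295 with etoposide. SULF2, a heparan sulfatase, read 0.875, 0.868, 0.875 and 5.31 and then 84.7, 73.8, 55.2 and 54.4 in HET, while KO read 18.5 to 23.6 and 13.4 to 29.5. SPATA31C2 and NCKAP5 had their highest levels in KO with DMSO, 64.2 to 83.6 and 85.7 to 91.5, and fell there, with differences of 4.36 and 4.24. In HET, SPATA31C2 read 0 to 3.5 with DMSO and 3.387 to 6.492 with etoposide, close to the limit of 3 counts. MYH16, a myosin heavy chain pseudogene, rose in HET from 3.07 to 84.9, and APOBEC3H, a cytidine deaminase with close relatives, rose from 4.38 to 65.5. AL035078.4 had no count in KO with etoposide and lost its call without KO DMSO replicate 4. On the deposited scale the differences of DSEL, SULF2, CYGB, MYH16, APOBEC3H, SPATA31C2 and NCKAP5 were between 1.79 and 2.70.

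Lower in HET were SLITRK6, PI15, CLEC7A, ALX4, PRB2, CLEC3A, KCNA1, SLC25A20, SERPINA3, CEBPD and MMP13. CEBPD, a transcription factor of the acute phase, was read at 1248, 1103, 1326 and 1107 in HET with DMSO, 365, 394, 413 and 422 in HET with etoposide, 220, 230.2, 238 and 202 in KO with DMSO and 540.2, 566, 515 and 509.5 in KO with etoposide. HET fell 3-fold and KO rose 2.39-fold, so the lines crossed (-2.84 ± 0.12, adjusted p = 1.22e-11). KCNA1, a voltage-gated potassium channel, fell in HET from 802, 794, 664 and 834 to 99.1, 129, 86 and 92.2, and KO read 268, 234, 309 and 265 with DMSO and 278, 260.5, 257 and 251 with etoposide. The KO treatments overlapped (-2.89 ± 0.17, adjusted p = 1.29e-09). MMP13, collagenase 3, read 1286, 1781, 1116 and 1251 and 1145, 1113, 972 and 955 in HET and rose in KO from 20.4, 26.8, 27.6 and 24.5 to 134, 136, 134 and 151. Even then KO stayed below HET (-2.80 ± 0.18, adjusted p = 3.6e-09).

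SLC25A20, the carnitine carrier of mitochondria, had no count in the 4 KO libraries with DMSO and 31 counts in the 4 with etoposide, against 163 to 211 normalized counts in HET with DMSO and 174 to 199 with etoposide. The HET treatments overlapped, and the KO libraries stayed far below HET. PI15, a secreted protease inhibitor, fell 40.1-fold in HET and 3.74-fold in KO, and SERPINA3, an inhibitor of serine proteases, fell in HET from 28.7 to 11 and rose in KO from 29.7 to 85.2. CLEC7A, the receptor dectin-1, and SLITRK6, a neuronal membrane protein, fell in HET to 59.3 and 6.61 from 373 and 133. PRB2, a salivary proline-rich protein with close relatives, and CLEC3A, a lectin of cartilage, fell in HET with differences of -3.07 and -2.95. ALX4, a homeobox factor, read 65.1 to 86.6 in HET with DMSO and 30.8 to 62.5 in HET with etoposide. Its HET response did not pass (-0.64, adjusted p = 0.162). In KO it rose from 1 count in the 4 libraries with DMSO to 32 counts in the 4 with etoposide. On the deposited scale the differences of SLITRK6, SERPINA3 and CLEC3A were -1.93, -1.51 and -1.63.

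**Figure D5:**
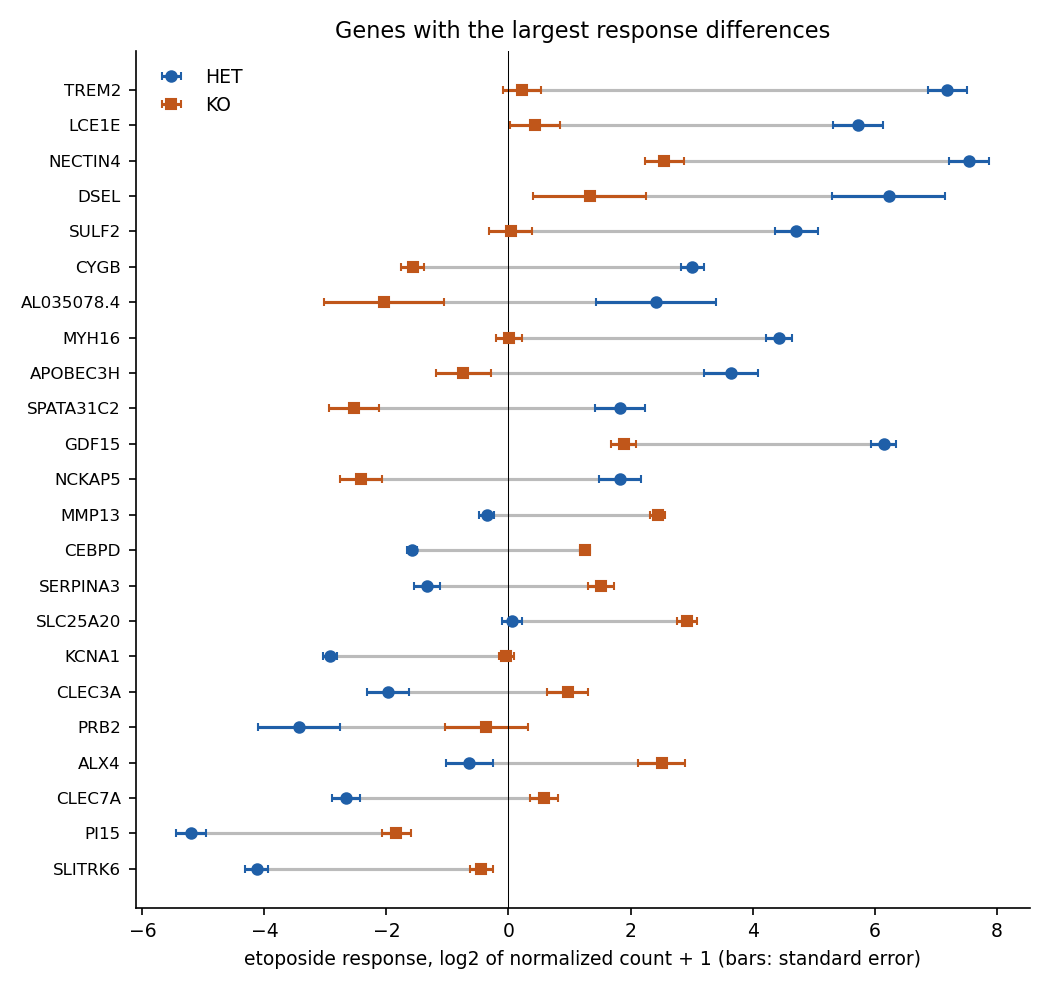
Etoposide response in HET (circles) and KO (squares), in log2 with standard errors, of the 12 genes with the largest higher and 11 of the 12 with the largest lower response difference; 4 libraries per group. CYGB and SPATA31C2 rose in HET and fell in KO, and CEBPD and SERPINA3 did the reverse. TREM2, LCE1E, AL035078.4, ALX4 and SLC25A20 had a group with at most 3 counts. SPATA31C2 had 5 counts in all in HET with DMSO and 21 in HET with etoposide. The positions of these genes with few counts depend on the 1 added to each count.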

How the data were processed

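RNA from U2OS cells was sequenced as poly-A libraries, per the labels' protocols. The tools kallisto and DESeq2 and the build GRCh38 (hg38) are named, without versions, per the submitters' processing notes. No source used here gives the strand setting or the annotation release. Values in the deposited matrix are on a log2 scale: they were variance-stabilized. The authors' deposited mean normalized signal per gene was used as a check, and inverting the transformation returned it to within a relative difference of 4.4e-14, and after division by a library factor 100% of values were whole counts within 0.01.

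From these, log2(normalized count + 1) was fitted with limma 3.58.1 (R 4.3.3, trend, 1 mean per group) on the 16 HET and KO libraries, for 16158 genes with at least 10 normalized counts in 4 or more libraries. Adjusted p-values are Benjamini-Hochberg over all 16158. Calls needed an adjusted p under 0.05 together with a change of 1.5-fold. The fit was tested on simulated data. No 2 libraries of a group agreed within sampling noise (chi-square per degree of freedom 1.85 to 51.3). Tables and figures used Python 3.11.15, pandas 2.3.3 and matplotlib 3.10.9. Alternatives covered scaling, pseudocount, filter, test, fold minimum, a replicate block and leaving out each library.

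The comparison and the gene lists were chosen with earlier results of these data known. The genes named are from a rule: the 12 largest differences in each direction with a mean of at least 50 normalized counts in a group and responses that do not overlap, CDKN1A, MDM2, BBC3, BAX and GDF15, and in each list up to 4 passing members per direction and up to 2 that did not pass; the text describes some of these, and a few genes are not reported here. SESN1, SESN2, THBS1, TOP2A, CDK1, CDCA8, ESPL1, INCENP and, other than HMMR and TRIAP1, the genes whose promoters are shown were chosen after their values were seen.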

Additional observations from a re-analysis of the deposited data

Results flagged for a closer look

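The responses of HET and KO differed by limma's test of the difference itself in 1650 genes that responded higher and 1407 that responded lower in HET. Of the genes named above, those that passed and had more than 3 counts in each group are listed here with the response difference in log2. Those that responded higher and rose in HET without passing in KO were DSEL 4.91, SULF2 4.68, MYH16 4.42, APOBEC3H 4.39, EPN3 3.69, CEL 2.73, PHLDA3 2.24, NFKBIZ 1.99, FDXR 1.94, EDA2R 1.69, DDB2 1.59, BBC3 1.58, SESN2 1.48, ZMAT3 1.39, TRPM2 1.26, TRIAP1 1.05 and BAX 0.95. Those that responded higher in HET and rose in both lines were NECTIN4 5.00, GDF15 4.26, MMP3 3.48, GLS2 2.78, CDKN1A 1.99, BTG2 1.67, FAS 1.60, ATF3 1.56, MDM2 1.42, SESN1 1.30, CD68 1.30 and PLK3 1.25. Those that responded higher and rose in HET and fell in KO were CYGB 4.58, SPATA31C2 4.36, NCKAP5 4.24, PRDM1 2.77, CYFIP2 2.53, BGN 2.23, TP53INP1 1.90, FN1 1.73 and BCL2L1 1.36. Those that responded higher in HET and fell in KO without passing in HET were HIST2H2BE 1.39 and FOSL2 1.32. Those that responded higher in HET and fell in both lines were HIST1H2AC 2.04 and THBS1 1.55. Those that responded lower and fell in HET without passing in KO were SLITRK6 -3.68, CLEC7A -3.24, PRB2 -3.07, KCNA1 -2.89, NUSAP1 -1.92, IFIT1 -1.71, TOP2A -1.47, PRC1 -1.19, PRIM1 -1.16, KIF11 -1.13, FANCD2 -1.12, CCNB2 -1.10, BUB1B -1.03, POLA2 -0.86, GINS2 -0.74 and MCM7 -0.64. Those that responded lower in HET and fell in both lines were PI15 -3.37, KRT14 -1.76, HIST2H2AC -1.17 and BMF -1.14. Those that responded lower and fell in HET and rose in KO were CLEC3A -2.95, SERPINA3 -2.85, CEBPD -2.84, HMMR -1.89, NUF2 -1.61 and MAD2L1 -1.47. Those that responded lower in HET and rose in KO without passing in HET were MMP13 -2.80, LUM -2.16, IFIT2 -1.49, CDK1 -1.24, SOD2 -1.17, BLM -1.12, RFC3 -0.93 and OASL -0.92. Those that responded lower in HET and rose in both lines were CXCL8 -2.32, CCNE2 -1.40 and FOS -0.72.

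In 26 of 380 groups of 4 libraries examined, 1 library stood apart from the other 3, with a gap beyond Dixon's critical value. Chance gives about 1 in 20. Total counts stood apart in HET etoposide replicate 2, at 8.05 M, and in a HET DMSO library at 22.98 M. In HET with DMSO, replicate 2 was the high library for NUSAP1 (2363 normalized counts), MAD2L1 (1137), IFIT1 (301.9) and DSEL (91.09) and the low one for INCENP (1128), replicate 3 for DDB2 (1150) and MCM7 (9195), and replicate 4 for SULF2 (5.31). The summed S-phase list was also high in a HET DMSO library, at 113361. In HET with etoposide, PRDM1 was low (87.21) and APOBEC3H high (79.59) in replicate 1, and BLM was low (323.8) and HIST2H2BE high (975.4) in replicate 3. In KO with DMSO, MDM2 (313.4), BLM (448.7) and PI15 (54.51) were high in replicate 1, TRIAP1 (272.7) and ALX4 (0.9503) in replicate 3, and GLS2 (2.227) in replicate 4, where CCNB2 was low (2601). In KO with etoposide, POLA2 was high (1555) and THBS1 low (3579) in replicate 1, and TREM2 (0.8407) and MMP13 (151.3) were high in replicate 4. The values for ALX4 and TREM2 are single counts.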

How the results depend on the processing

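The count of genes responding higher in HET lay between 1294 and 1742 over the other scalings, pseudocount, tests, filters and libraries run, and was 859 with a minimum of 2-fold and 2410 with no fold minimum. The count responding lower was 817 with all 32 libraries in the fit, 505 with a minimum of 2-fold and 2391 with none. Leaving out 1 library at a time gave 1498 to 1742 higher and 1267 to 1647 lower, 2772 to 3026 that rose and 2159 to 2303 that fell in HET, and 3049 to 3312 and 2365 to 2673 in KO. With total-count scaling 1388 genes fell in HET, and 5407 rose and 1243 fell in KO. With upper-quartile scaling 4464 rose and 1212 fell in HET and 1542 fell in KO. Without a filter 4864 rose in HET, and with a filter of 50 normalized counts 1880 did. On the deposited scale 2114 rose in KO, and the IFIT3 response difference turned to -0.03 from 0.64. With a minimum of 2-fold, 1813 rose and 859 fell in HET and 1631 rose and 1023 fell in KO. With none, the counts were 4631 and 4706 in HET and 5143 and 4831 in KO. The causes of these changes were not tested, other than the fold minimum itself.

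Replicate numbers were shared between groups, but same-numbered libraries did not deviate together (correlations -0.209 to 0.251 over 24 pairs, 2 of them over 0.1). With a replicate block 1618 genes responded higher and 1362 lower, and 4 of 16 libraries were closest to their own number. A trend removal on GC content and length, chosen after seeing the data, gave 1633 and 1372. HET etoposide replicate 2 had the least depth, where 3 counts equal 6.151 normalized counts, and without it 1639 responded higher and 1401 lower. On the deposited scale the differences of genes with few counts were smaller. Among them TREM2 was at 3.51 in place of 6.97, LCE1E at 1.92 in place of 5.28, SLC25A20 at -0.74, ALX4 at -1.09, EPN3 at 2.38, MMP3 at 1.26, SLITRK6 at -1.93, SERPINA3 at -1.51, BGN at 1.06, CEL at 1.39 and CLEC3A at -1.63.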
